A study of Mus musculus with 4 samples.

Results

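CpG islands are short stretches of the genome rich in CpG dinucleotides, and most of them lie at gene promoters. Cytosine methylation in mammals falls mainly on CpG sites. Islands are usually free of it, whereas islands of imprinted genes are methylated on 1 parental copy, and the flanks of islands (shores) can differ from their centre. In methylated DNA immunoprecipitation (MeDIP) an antibody against 5-methylcytosine pulls down methylated fragments, which are hybridised to an array beside the untreated input DNA.

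The regions described here are CpG islands that carried both kinds of MeDIP signal: at least 2 probes with MeDIP signal on every array and at least 2 probes without it on any array. They were selected on the readout itself, by the scanner software's flag for a signal well above background. Autosomal probes whose input signal had that flag on all 4 arrays were joined into regions across gaps of up to 1000 bp on the mm9 build, and regions of 6 or more probes were read. Of 5928 such regions (14126 of any size), 2433 met the rule, with 24525 probes among them. A probe with MeDIP signal on all 4 arrays is called always-bright below, and one without it on all 4 arrays always-dim. The members had a median of 9 probes (range 6 to 36) over a median of 1209 bp. Another 1168 regions had 2 or more always-bright and fewer than 2 always-dim probes, 1862 had the reverse and 465 had fewer than 2 of either.

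Genomic DNA came from whole brains of mice (C57BL/6 in the sample labels, from C57BL/6J dams in the protocol) on day 1 after birth. The dams had been given vehicle (Sham) or titanium dioxide nanoparticles at 100 ug per mouse (TiO2-H) through the trachea during pregnancy. The labels give gestational day 14 in the sample names and day 10.5 in the treatment protocol. Each of the 4 arrays held 1 pool of 1 sex and exposure, made from 2 offspring of each of 5 dams (Sham) or 6 dams (TiO2-H), so no value within a group has a replicate error. MeDIP DNA carried Cy5 and input DNA Cy3 on every array, with no dye swap. Slide 1 held both arrays labelled male and slide 2 both labelled female, and Sham lay at position 1 and TiO2-H at position 2 of each slide, so slide and sex label, and position and exposure, cannot be told apart. X-linked input relative to autosomal input was -0.75 (log2) for Sham male, 0.03 for Sham female, 0.03 for what is labelled TiO2-H male and -0.74 for what is labelled TiO2-H female. For TiO2-H it was thus the reverse of the sex labels, which are used below as names only. Where 4 values follow each other, they are those of the Sham pools (male, then female) and then of the TiO2-H pools (male, then female). MeDIP signal was well above background at 51.2%, 58.8%, 24.6% and 32.9% of autosomal probes.

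The rule's threshold cut through a continuum. Of the 2433 members, 1135 had exactly 2 always-bright probes, 853 exactly 2 always-dim probes and 400 exactly 2 of each. Just outside it, 1189 regions with 2 or more always-dim probes had 1 always-bright probe, and 743 regions with 2 or more always-bright probes had 1 always-dim probe. Among all 5928 regions, 15 were always-bright at every probe and 5 always-dim at every probe.

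These islands cannot simply be read as part methylated and part unmethylated, because always-dim probes were also dim in input DNA. Median input intensity at the 8497 always-dim probes was 443 on the Sham male, 489 on the Sham female, 371 on the TiO2-H male and 422 on the TiO2-H female array. At the 7210 always-bright probes it was 1694, 1536, 1389 and 1282 on the same arrays. Within a region, the median input of always-bright probes exceeded that of always-dim probes in 2419, 2407, 2426 and 2411 of 2433 regions, by a median of 2.00, 1.73, 1.97 and 1.67 on the log2 scale. Always-dim probes were also longer: 60.4% of them were 45-mers against 95.8% of always-bright probes, and probe length on such arrays is set by base composition. The part that input signal and probe length have in the bright and dim calls was not tested.

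**Figure D1:**
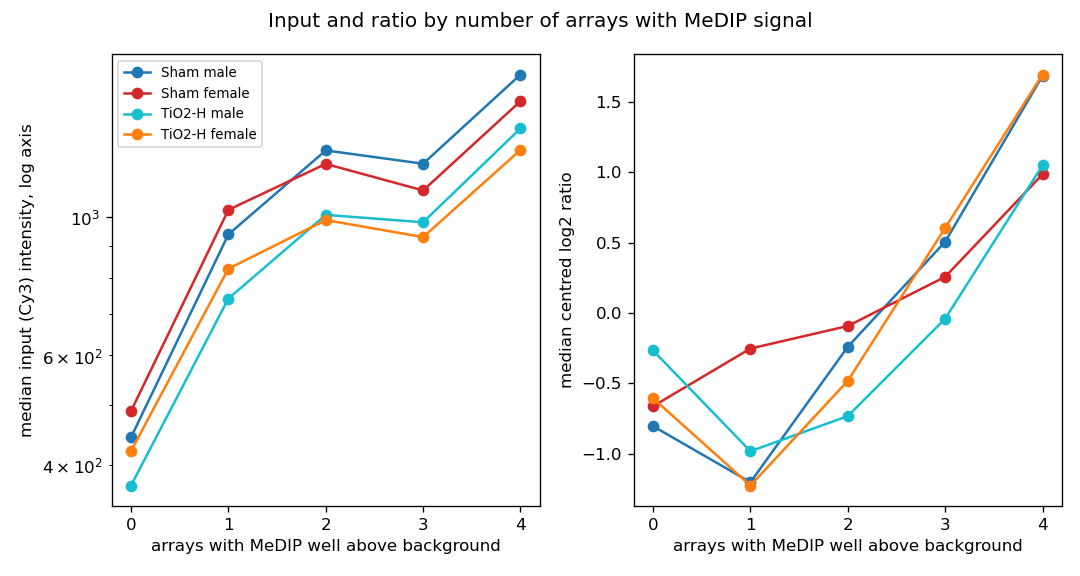
Member probes grouped by the number of arrays on which MeDIP was well above background (x axis), with the median input (Cy3) intensity on a log axis at left and the median centred log2 ratio of MeDIP over input at right, 1 line per array. Input rises from 371 to 489 at always-dim probes to 1282 to 1694 at always-bright probes, and on 3 of the 4 arrays the lowest ratio is not at the always-dim probes.

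The ratio of MeDIP over input takes the input into account. Centred on the autosomal median of each array, the log2 ratio at always-bright probes had a median of 1.69, 0.98, 1.05 and 1.69, values that the rule itself favours. At always-dim probes it was -0.81, -0.66, -0.27 and -0.61. Probes bright on 1 array lay lower still on the Sham male (-1.20), TiO2-H male (-0.98) and TiO2-H female (-1.23) arrays, and at -0.25 on the Sham female array. A dim MeDIP signal gives only an upper bound on the ratio, which was set by raising Cy5 to the lowest Cy5 called well above background on that array. Against this bound, the median ratio of the always-bright probes was the higher in 2130 and 1959 of 2433 regions on the Sham arrays, in 530 and 1649 on the TiO2-H arrays, and in 529 regions (21.7%) on all of them. The array labelled TiO2-H male, whose lowest Cy5 called well above background was the highest of the 4 (837, against 430, 507 and 574), set that last count. With the strictest reading, 198 of 2433 regions (8.14%) kept 2 or more always-dim probes whose bound lay under every always-bright probe of the region on all 4 arrays. Every always-dim probe met that reading in 44 regions. The other regions hold dim probes whose methylation cannot be placed below that of every bright one, so all are described as islands with always-bright and always-dim probes.

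A single step along the island was the exception. Always-bright probes lay on one side of all always-dim probes (one-sided) in 433 regions, which was 17.8% (95% Wilson interval 16.3 to 19.4, counting error over regions only). The bright end came first along the chromosome in 231 of them and last in 202. In 610 regions (25.1%) a run of always-bright probes was flanked by always-dim probes on both sides, and in 111 (4.56%) an always-dim run was flanked by always-bright probes. The remaining 1279 regions (52.6%) switched between bright and dim 3 or more times. There were 3 switches in 650 regions and 4 in 395, and the most in any region was 12. Requiring 3 always-bright and 3 always-dim probes, which leaves the longer islands, gave 7.34% one-sided among 845 regions.

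**Figure D2:**
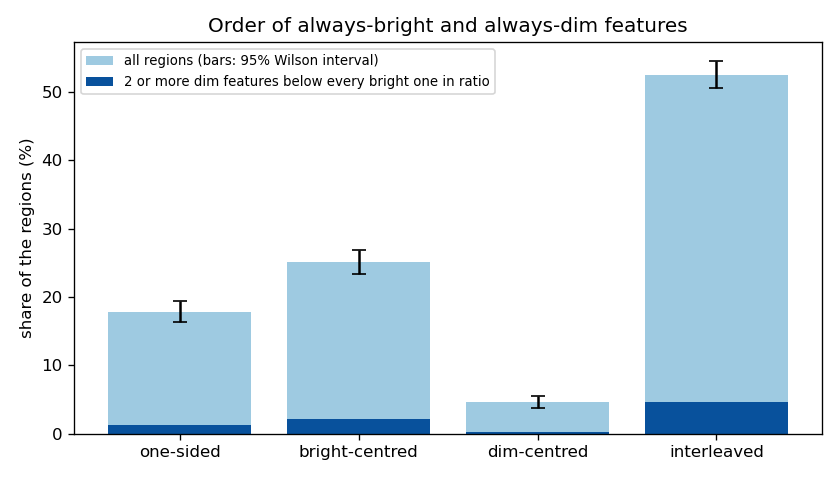
Share of the 2433 regions (y axis, %) in each order class of always-bright and always-dim probes, with 95% Wilson intervals, and within each bar the part with 2 or more always-dim probes whose ratio bound lies under every always-bright probe. Interleaved regions make up 52.6% and one-sided regions 17.8%, and the dark part is a small share of every class.

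Neighbouring probes shared their state little more often than not. Of 8945 pairs of adjacent probes that were each always-bright or always-dim, 4399 (49.2%) differed in state. The share was 47.7% at 54 to 75 bp between probe centres, 49.4% at 100 to 150 bp, 50.2% at 300 to 500 bp and 61.7% (162 pairs) above 500 bp. Sonicated fragments were 200 to 800 bp long, so probes closer than that were read largely from the same fragments. Over all regions of 6 or more probes, members included, 40.7% of 14777 pairs differed, with 38.8% at up to 75 bp. A higher share among members is set in part by the rule, which requires both states.

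Bright and dim probes were placed unevenly. Probes were sorted by their place between the outer ends and the centre of their region. Always-dim probes made up 43.8% of the outermost of 4 equal zones and 27.5% of the central one, and always-bright probes 22.1% and 35.2%. Input moved with place as well: median input rose from 778 in the outermost to 1041 in the central zone on the Sham male array, and from 672 to 817 on the TiO2-H female array. Regions of 6 or more probes outside the rule had the same order, with 35.8% and 23.9% always-dim. The part of input signal in this pattern was not tested.

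**Figure D3:**
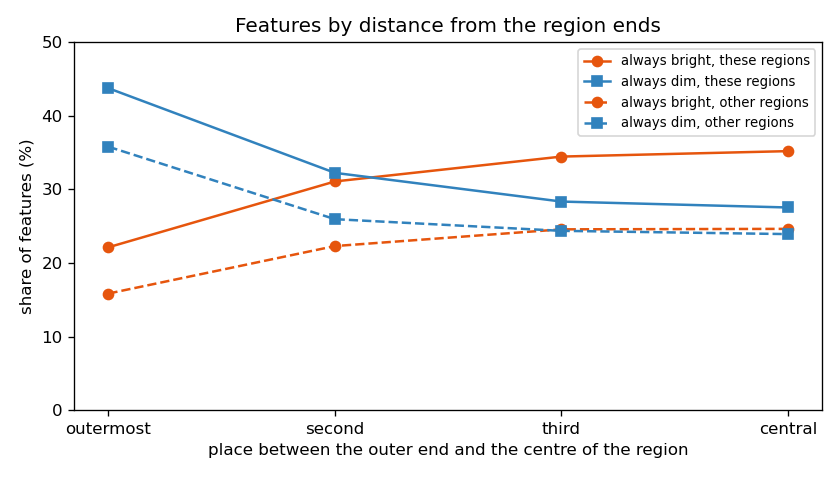
Share of probes (y axis, %) that are always-bright (circles) or always-dim (squares) by place from the outer end to the centre of the region (x axis), in the 2433 regions (solid lines) and in the other regions of 6 or more probes (dashed lines). Always-dim probes fall from 43.8% at the ends to 27.5% at the centre of these regions while always-bright probes rise from 22.1% to 35.2%.

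In the 433 one-sided regions the last always-bright and the first always-dim probe were a median of 185 bp apart (quartiles 122 and 346.5 bp, range 65 to 1150 bp). No other probe lay between them in 274 regions (63.3%). The place of the step was then read on each array by itself, as the single change point of the log2 ratio that left the smallest squared error with 2 or more probes on each side. The change point ran from bright to dim in the direction given by the rule in 360 regions (83.1%) on the Sham male, 411 (94.9%) on the Sham female, 274 (63.3%) on the TiO2-H male and 340 (78.5%) on the TiO2-H female array, and on all 4 in 263. Elsewhere the best single change point ran the other way on at least 1 array. Step heights given below take dim Cy5 signals at their face value, although such a signal only bounds the ratio, so they are readings of the fit and not measured differences in methylation. The median bright part, from the bright end to the step, measured 465.5, 513, 386.5 and 438 bp on the 4 arrays. These medians include regions whose change point ran the other way, where the length does not measure a bright part. In the 263 regions that ran from bright to dim on all 4 arrays it was 483, 478, 438 and 458 bp.

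The step lay in the same gap between probes on all 4 arrays in 131 of 433 regions (30.3%). The rule itself favours a shared gap, since it requires probes with the same state on all 4 arrays. The share is thus no test of whether the step is stable. Over all one-sided regions its place spanned a median of 216 bp across the arrays (binomial 95% interval of the median 176 to 254 bp), with an upper quartile of 452.5 bp and a maximum of 2250 bp. The array pair that shared the gap most often was Sham male with TiO2-H female (307 regions, 70.9%), and the pair that did so least often was Sham female with TiO2-H male (165, 38.1%). The Sham pair shared it in 248 regions (57.3%) and the TiO2-H pair in 257 (59.4%). Pairs of the same exposure therefore did not stand above all pairs of different exposure.

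**Figure D4:**
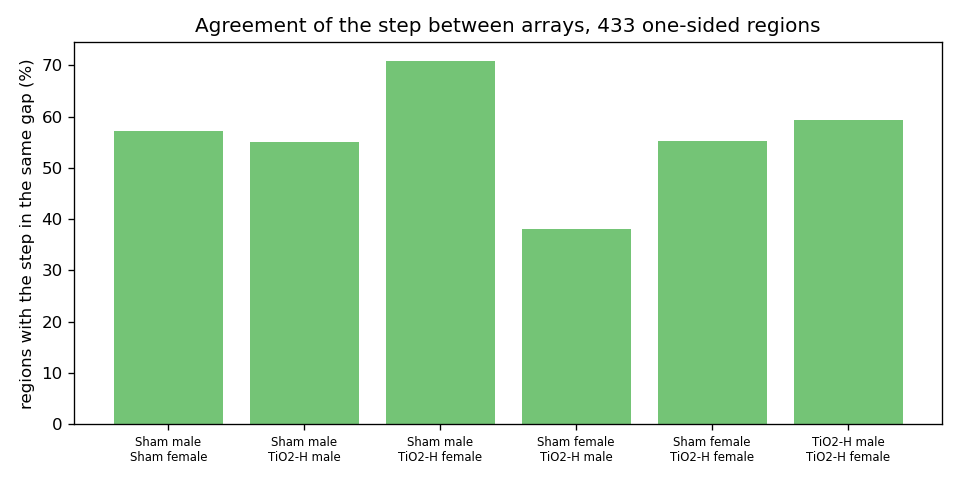
Percent of the 433 one-sided regions (y axis) whose change point lay in the same gap between probes, for each pair of arrays (x axis). The Sham male and TiO2-H female arrays share the gap in 70.9% of regions, the Sham female and TiO2-H male arrays in 38.1%, and the other pairs lie between.

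Set by exposure, the bright part was shorter on both TiO2-H arrays than on both Sham arrays in 36 regions (8.31%) and longer in 14 (3.23%), and the arrays overlapped in 383. With 2 arrays against 2 an exact permutation test cannot give a two-sided p under 0.333 for a region, and no other test of the shift was run. Among the 263 regions whose step ran the right way on all 4 arrays, 8 were shorter and 9 longer. Reading the flags in place of the ratio gave 92 shorter and 0 longer, and normexp background correction 10 shorter and 65 longer. With normexp, however, the change point ran from bright to dim in 26.1%, 81.3%, 7.85% and 15.5% of regions on the 4 arrays. It did so on all 4 in 31 of 433 regions, so the normexp counts mostly do not measure a bright part. The direction of the movement thus depended on the values read, and fewer MeDIP signals passed the background flag on the TiO2-H arrays over the whole array (above).

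The one-sided regions with the most probes and an unmoved step include Mocs3, which encodes an enzyme of molybdenum cofactor synthesis. The island spans chr2:168055199-168057301 (mm9), with 7 always-bright and 6 always-dim of 16 probes. Its bright part measured 1027 bp on every array, and the step stood 2.20, 1.60, 1.56 and 2.02 log2 units high. Median log2 ratios at its bright probes were 2.44, 1.80, 2.07 and 2.39, and at its dim probes -0.32, -0.11, -0.22 and 0.02. Input here was 739 against 421 on the Sham male array, a smaller gap than in most members, and 1 dim probe lay under every bright probe with its bound.

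Ccdc85c, which encodes a coiled-coil protein of apical cell junctions in the developing brain, had its step 1350.5 bp into the island on all 4 arrays (chr12:109512475-109514861, mm9). The fitted step height was 2.53, 1.44, 1.88 and 2.56 log2 units in the same order of arrays. Of its 5 always-dim probes, 1 lay under every bright probe with its bound. Jarid2, an accessory subunit of Polycomb repressive complex 2, held a step of 2.14, 1.13, 1.25 and 2.06 (chr13:44824974-44826761). It lay 694.5 bp from the bright end, which came last along the chromosome. Input at Jarid2 was 2428 at bright against 322 at dim probes on the Sham male array. Of its 4 always-dim probes, 1 lay under every bright probe with its bound. Hnrnpa2b1, an RNA-binding protein, held a step 171.5 bp from its bright end, also the last, with heights of 3.04, 1.93, 2.20 and 1.76 (chr6:51418926-51421270). Its input was 2987 at bright against 405 at dim probes on the Sham male array, and none of its 8 dim probes stayed under the bright ones with its bound. The other 4 of the 8 regions of this kind with the most probes were Mapk4 and 3 islands with no symbol in the table used.

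The sequences below are RefSeq promoters (GRCm38.p6, 250 bases before to 50 after the start) of 4 genes whose islands the results turn on, shown for the spacing of the CpG sites that the antibody reads; each is written 5′ to 3′ with every CpG in capitals. Mocs3 and Ccdc85c carry an unmoved step, Yap1 a probe that was dim on both TiO2-H arrays, and Peg3 is imprinted. They lie at chr2:168230372-168230671 (plus strand, 26 CpG), chr12:108275344-108275643 (minus strand, 40 CpG), chr9:8004547-8004846 (minus strand, 49 CpG) and chr7:6730370-6730669 (minus strand, 13 CpG) of that build, which is not the build of the array.
Mocs3: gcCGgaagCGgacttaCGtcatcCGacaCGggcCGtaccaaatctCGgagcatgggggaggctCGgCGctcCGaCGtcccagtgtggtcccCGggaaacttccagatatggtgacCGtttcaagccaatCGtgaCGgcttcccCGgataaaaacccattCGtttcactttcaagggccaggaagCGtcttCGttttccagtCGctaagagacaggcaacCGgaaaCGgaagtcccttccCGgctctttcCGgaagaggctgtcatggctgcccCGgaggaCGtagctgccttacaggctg
Ccdc85c: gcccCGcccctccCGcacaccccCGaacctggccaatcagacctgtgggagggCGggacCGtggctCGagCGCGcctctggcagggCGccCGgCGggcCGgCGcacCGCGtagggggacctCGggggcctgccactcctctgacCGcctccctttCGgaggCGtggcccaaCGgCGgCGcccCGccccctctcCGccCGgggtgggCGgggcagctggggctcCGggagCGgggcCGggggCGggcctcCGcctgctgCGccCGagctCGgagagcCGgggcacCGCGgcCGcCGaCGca
Yap1: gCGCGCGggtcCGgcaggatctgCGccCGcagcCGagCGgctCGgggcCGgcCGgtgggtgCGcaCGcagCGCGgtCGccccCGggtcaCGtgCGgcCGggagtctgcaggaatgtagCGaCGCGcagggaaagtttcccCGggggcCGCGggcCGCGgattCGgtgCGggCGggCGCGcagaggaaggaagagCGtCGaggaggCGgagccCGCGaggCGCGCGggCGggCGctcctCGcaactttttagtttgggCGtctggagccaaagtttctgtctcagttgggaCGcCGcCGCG
Peg3: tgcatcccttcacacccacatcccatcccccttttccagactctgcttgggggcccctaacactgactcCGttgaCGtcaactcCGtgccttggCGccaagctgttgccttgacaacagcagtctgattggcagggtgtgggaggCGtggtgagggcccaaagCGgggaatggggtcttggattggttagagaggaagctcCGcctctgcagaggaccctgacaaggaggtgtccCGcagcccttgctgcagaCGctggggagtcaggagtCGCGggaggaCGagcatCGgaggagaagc

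All RefSeq promoters of the same length (32851) held a median of 7 CpG, counted on 1 strand, which reads the same on the other, and 94.6% held at least 1. Promoters of members with a start site held a median of 25, and those of other regions of 6 or more probes 24. The Mocs3 and Peg3 promoters had 59.0% and 61.3% G and C, against 81.0% for Ccdc85c. These counts describe the windows and not the methylation of any site in them.

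In 5 of the 8 regions with the widest range the change point ran from dim to bright on at least 1 array, so the range there mixes change points of opposite direction. Dusp4 and Srgap2 were among the other 3. Dusp4, a phosphatase that inactivates MAP kinases, spans chr8:35869720-35872848 (mm9) with 2 always-bright and 3 always-dim of 23 probes. Its change point lay 396.5 bp from the bright end on the Sham male, 2536.75 bp on the Sham female, 666 bp on the TiO2-H male and 396.5 bp on the TiO2-H female array. Its nearest always-bright and always-dim probes were 267 bp apart. These points cannot all lie between them, so the lengths do not all measure its bright part. The Sham female array stood apart, with a step of 0.82 log2 units against 2.87, 1.47 and 2.53 on the others. In Srgap2, a GTPase-activating protein of migrating neurons, the Sham female array stood apart as well. The change point lay at 1011 bp on 3 arrays and at 2441.5 bp on the Sham female array, where the step was 0.79 high. Its last always-bright probe began 1538 bp and its first always-dim probe 1751 bp into the island. The change point lay between them on no array, so these lengths do not measure its bright part. The other 6 of the 8 widest ranges were in islands with no symbol in the table used, from 1376.5 to 2250 bp.

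**Figure D5:**
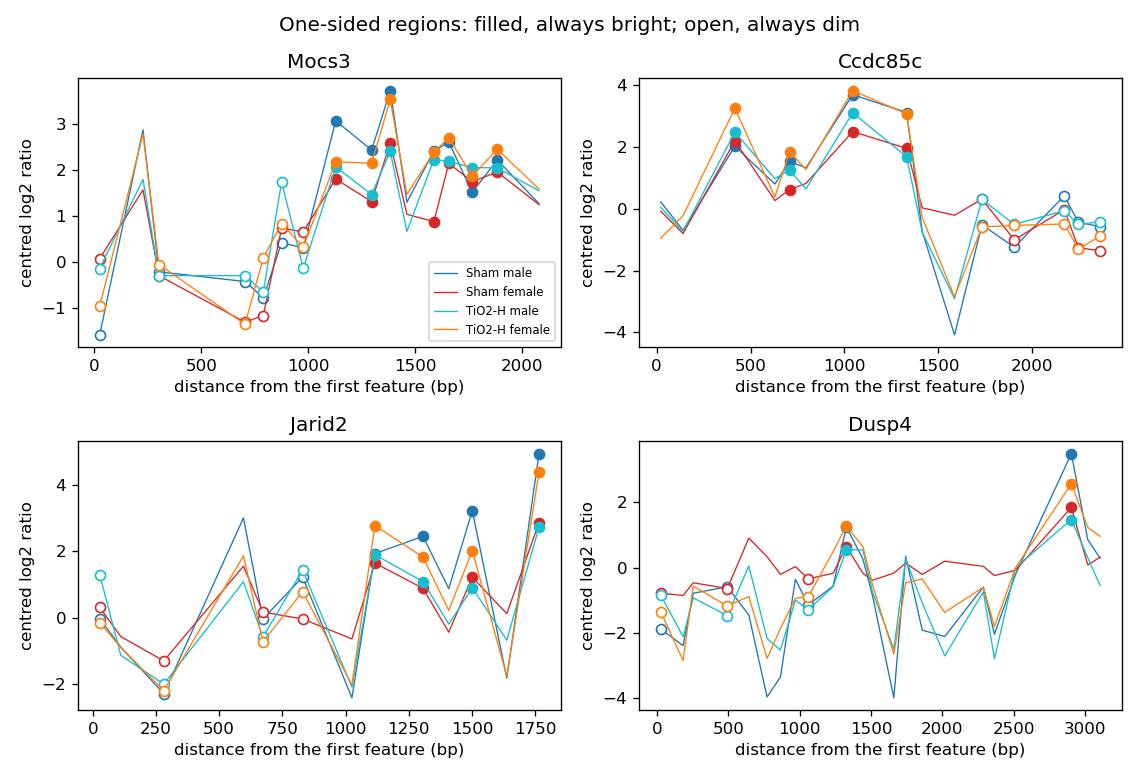
Centred log2 ratio of MeDIP over input (y axis) by distance from the first probe (x axis, bp) in 4 one-sided islands, 1 line per array, with always-bright probes filled and always-dim probes open. The step of Mocs3, Ccdc85c and Jarid2 lies at 1 place on every array, whereas the change point of Dusp4 spans 2140.25 bp.

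Bright-centred islands had a median length of 1060.5 bp and dim-centred islands one of 1213 bp. The 5 longest bright-centred islands belonged to Tchh (a hair follicle structural protein), Pou3f1 and Otp (homeobox transcription factors of the nervous system), Ctbp2 (a transcriptional corepressor) and 1 island with no symbol. Otp had 3 always-bright probes between 11 always-dim ones in 20. Among the 5 longest dim-centred islands, Sox12, an SRY-box transcription factor, was the only one with a symbol. Its 4 always-bright probes had median log2 ratios of 1.99, 1.64, 1.57 and 2.35, and its 5 always-dim probes -1.29, -1.20, -0.25 and -1.33. Input at those dim probes was 505, 580, 416 and 561 against 1554, 1289, 1347 and 1135 at the bright ones.

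Gene symbols came from the study's own list of probes, which is held here only in part and is ordered by the change in males, so 946 of the 2433 regions had a symbol and the naming is not independent of the readout. Of 2173 named regions with 6 or more probes, 43.5% were members. The counts of the gene lists below are a description beside that share, and islands with more probes meet the rule more easily.

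Developmental transcription factors, many of which carry long CpG islands, had 61 of 98 named regions among the members (62.2%). Symbols were taken by prefix, which also let in the noncoding transcript Sox1ot. Of the 61, 44 were interleaved, 8 bright-centred, 5 dim-centred and 4 one-sided. Sox2, a factor of neural stem cells, had 5 always-bright and 5 always-dim of 20 probes in the order dim, bright, dim, bright (chr3:34547722-34550298, mm9). Its bright probes had median log2 ratios from 1.34 (Sham female) to 2.50 (Sham male), and its dim probes from 0.16 to 0.49. Pax6, a master factor of eye and forebrain development, had the same order with 4 and 4 of 16 probes, at 1.15, 0.68, 0.74 and 1.45 against -0.78, -0.08, -0.42 and -0.18. Of the 61, 3 kept 2 dim probes under every bright probe with the bound: Lhx5, Nkx2-2 and Gata4.

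Lhx5, a LIM-homeobox factor of the forebrain, was the one-sided region among those 3 (chr5:120885367-120886318, mm9). Its 2 always-bright probes, at 1 end of the island, had median log2 ratios of 3.43, 2.52, 2.38 and 3.60. The 3 always-dim probes lay at -0.43, -0.46, -0.18 and -0.22, with a median input of 819 against 1185 on the Sham male array. The nearest always-bright and always-dim probes were 79 bp apart, and the bright part measured 139.5 bp on 3 arrays and 397 bp on the TiO2-H male array.

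Imprinted genes had 7 of 13 named regions among the members, and all 7 were interleaved: 2 islands of Gnas and 1 each of Peg3, Peg10, Igf2, Cdkn1c and Airn. Peg3, a paternally expressed zinc finger gene, had 4 always-bright and 3 always-dim of 9 probes (chr7:6682111-6683212, mm9). Its bright probes had median log2 ratios of 2.17, 1.23, 1.82 and 1.73 and its dim probes 0.19, 0.43, 0.26 and 0.36. Input at the dim probes was 257, 308, 208 and 258, against 1608, 1418, 1380 and 1295 at the bright ones. Cdkn1c, an inhibitor of cyclin-dependent kinases, had 8 always-bright of 14 probes, with bright ratios of 1.81, 1.31, 1.60 and 1.79 and dim ratios of 0.30, 0.99, 0.99 and 1.43. None of the 7 kept 2 dim probes under the bright ones with the bound.

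Synaptic and axon guidance genes had 33 of 79 named regions among the members (41.8%), 23 of them interleaved. The list was read by symbol prefix, and also took in the proteases Htra3 and Htra4. With the bound, 4 of the 33 kept 2 dim probes: Sema4c and Sema6c, which encode semaphorins, the protocadherin Pcdh10 and the potassium channel subunit Kcng2. Signalling ligands and receptors had 14 of 26 (53.8%), 11 of them interleaved, and Bmp2 and Tgfb1, ligands of the TGF-beta family, kept 2 dim probes. Its prefix for the Gli factors also took in Glis1. No member carried a symbol of the germline genes, which had 3 named regions.

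Probes bright on some arrays only, which the rule did not use, numbered 8818 in the members. Of these, 6095 (69.1%) were bright on the Sham male, 7402 (83.9%) on the Sham female, 164 (1.86%) on the TiO2-H male and 1893 (21.5%) on the TiO2-H female array. Both Sham arrays and neither TiO2-H array were bright at 2816 (31.9%), beside 32.2% of 34579 such autosomal probes, and the reverse was seen at 0, beside 0.00289%. The members' shares were those of the whole array. When the same number of probes was called bright on every array by rank of Cy5, 5816 member probes were bright on some arrays only. Of these, 235 (4.04%, beside 4.34% of 21790 such autosomal probes) were bright on both Sham arrays alone. Another 245 (4.21%, beside 4.66%) were bright on both TiO2-H arrays alone.

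Kif26b, a kinesin family member, had the most probes bright on the Sham arrays alone, 8 of 29. It had 13 bright probes on the Sham male, 21 on the Sham female, 3 on the TiO2-H male and 4 on the TiO2-H female array. Insm2, a zinc finger factor, had 7 such probes of 17, and an island named 2700081O15Rik 7 of 19. Zfp503, a zinc finger repressor, had 6 of 35 with 11 always-bright and 12 always-dim probes, the states switching 7 times along the island. Hic1, a transcriptional repressor known for promoter methylation in tumours, had 6 of 33. Over all members, 2816 of 24525 probes were of this kind. The islands were picked for the largest counts, which islands with more probes reach more easily. With the same number of probes called bright on every array, 235 member probes were bright on both Sham arrays alone and 245 on both TiO2-H arrays alone. At always-bright probes of Kif26b the median log2 ratio was 1.04, 0.53, 0.61 and 0.56.

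Within a labelled sex, TiO2-H was set against Sham at the 7206 always-bright member probes without outlier flags, with 1 array on each side and no test. In the comparison labelled male, 4026 had a fold at or under 0.67 (55.9%, beside 53.3% of 20584 always-bright autosomal probes) and 114 a fold at or above 1.5 (1.58%, beside 3.42%). In the comparison labelled female, 4492 were at or above 1.5 (62.3%, beside 56.2%) and 209 at or under 0.67 (2.90%, beside 3.44%). The median log2 fold was -0.67 in the first and 0.73 in the second. The 2 Sham arrays differed by as much, with a median of -0.70 for Sham female over Sham male, and the 2 TiO2-H arrays by 0.70. Log2 ratios were also spread unequally, with a median absolute deviation (scaled to the SD of a normal distribution) of 1.60, 0.89, 1.35 and 1.54 over autosomal probes on the 4 arrays. With a common spread on every array the medians were -0.40 and -0.08, and with TiO2-H arrays paired by crossed sex labels they were -0.02 and 0.02, so both medians came close to 0 when the arrays were paired by crossed labels. The median labelled male stayed below 0 under each scaling tried (-0.07 with loess), and that labelled female turned below 0 with a common spread, normexp and loess.

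TiO2-H was then set against Sham over both labelled sexes (2 arrays each) with limma, over 39861 autosomal probes bright on 2 or more arrays. After Benjamini-Hochberg adjustment, 7 of 12051 member probes were called (0.0581%, beside 0.0928% of all probes tested), all lower on the TiO2-H arrays. All 7 were bright on both Sham arrays and on neither TiO2-H array, so they passed the filter through the Sham arrays where they were high, and the count supports no difference by itself. It was 1 with no filter on Cy5 and 0 with Cy5 above background on all 4 arrays. At an unadjusted p under 0.05 there were 526 (4.36%, beside 5.45%), 518 of them lower. With a dim signal on the TiO2-H arrays the fold of a called probe is a bound, computed against the lowest Cy5 called well above background. No centring, normexp correction and loess within arrays each gave 0 calls in the members.

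Yap1, the transcriptional coactivator of the Hippo pathway, had its called probe at chr9:8003868-8003912 (mm9). Its log2 ratio was -0.19 and 0.75 on the Sham arrays and -3.34 and -2.82 on the TiO2-H arrays, at least 3.65-fold lower on the latter. Zfp143, a zinc finger activator, was called at chr7:117205106-117205158, with ratios of 1.02 and 1.29 against -1.99 and -2.59 (at least 2.32-fold lower). Another 4 called probes lay in islands with no symbol in the table used, with bounds from 2.21-fold to 4.72-fold.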

How the data were processed

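Input DNA (Cy3) and MeDIP DNA (Cy5) of 4 pools were hybridised to 2-colour CpG island arrays. The authors scanned them with Feature Extraction 10.7.3.1 and deposited processed intensity per spot (background-subtracted and scaled per dye), raw median intensity, flags and the log10 ratio of Cy5 over Cy3. The deposited series table holds the same log10 ratio. Positions are those of mm9 in the files. Regions, order classes and change points were computed in Python 3.11.15. The log2 ratio of the processed signals was centred on the autosomal median of each array, and limma 3.58.1 (R 4.3.3) was fitted to 2 TiO2-H against 2 Sham arrays with Benjamini-Hochberg adjustment at 0.05. Change points and limma were tested on simulated data. Normexp (offset 50) used median rather than mean spot signals. The labelled sexes were taken as samples of an exposure; each is 1 pool, so p-values measure only the spread between these arrays, whose number limits the precision.

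The regions and gene lists were chosen with earlier results of these data known. Regions named are the 8 one-sided regions with most probes and an unmoved step, the 8 with the widest range, the 5 with most probes bright on the Sham arrays alone (none had the reverse), the 5 longest bright-centred and dim-centred, those with a limma call (1 of them is not reported here) and those in a list. The lists are developmental transcription factors, imprinted, germline, synaptic and axon guidance genes, and signalling ligands and receptors. Symbols came from the study's probe list: 4851 listed probes matched the array by name and position, and 4753 of them a RefSeq transcript. Exon or intron of a probe was not annotated, since no mm9 annotation was used here. Spots with an outlier flag (4 in the members) were left out of fits and folds. Alternatives were the joining gap, the counts required, the values and scaling read, the filter on dim probes, the slide as a block and each array left out.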

Additional observations from a re-analysis of the deposited data

Results flagged for a closer look

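The labelled sexes moved in opposite directions at the always-bright probes of these regions: the median log2 fold of TiO2-H over Sham was -0.67 in the comparison labelled male and 0.73 in that labelled female, a gap of 1.39 between the comparisons. The difference was not tested, since each side is 1 array, and the medians were -0.02 and 0.02 with crossed sex labels. With the labels as given, the directions were still opposite with no centring (-0.59 and 0.22) and quantile normalization (-0.37 and 0.18), and were both below 0 with a common spread (-0.40 and -0.08), normexp (-0.33 and -0.40) and loess (-0.07 and -0.17). In the Dusp4 island the change point lay 269.5 bp further from the bright end on the TiO2-H than the Sham array labelled male. Its shift was -2140.25 bp in the comparison labelled female, a difference of -2409.75 bp. This difference was not tested either, and it rests on the Sham female array. The nearest always-bright and always-dim probes there were 267 bp apart, so these shifts do not measure a change in the bright part.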

How the results depend on the processing

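The number of regions (2433) stayed within 1.5 times under a shorter or longer joining gap and with 8 or more probes (1729 to 2498), and was 845 with 3 of each kind and 198 with 2 dim probes bounded below every bright one. The one-sided share was 7.34% and 15.2% under those 2. The median range of the step (216 bp) was 143 bp from the flags, 0 bp from Cy5 alone, 304 bp with normexp, 73.5 bp with 3 probes on each side, 79 bp in regions running the right way on all arrays and 0 bp in regions with bounded dim probes. The share with an unmoved step (30.3%) was 39.5%, 58.9%, 12.9%, 49.9%, 49.0% and 53.3% in that order. The bright part was shorter on both TiO2-H arrays in 21.2%, 4.85%, 2.31%, 4.16% and 3.04% under the first 5 of them, and longer in 0%, 0.462% and 15.0% under the first 3 and 0% with bounded dim probes. With normexp the change point ran from bright to dim on all 4 arrays in 31 of 433 regions. The last 2 subsets and the bound were chosen after seeing the data. Quantile normalization and ranks kept all 4 values of the step within their intervals.

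With the same number of probes bright on every array, 235 were bright on the Sham arrays alone (2816 with the flags) and 245 on the TiO2-H arrays alone (0 with the flags). These were 4.04% and 4.21% of member probes bright on some arrays, beside 4.34% and 4.66% over all autosomal probes. Always-bright probes at or above 1.5 in the comparison labelled male (114) numbered 182 with a common spread, 265 with quantile normalization, 1 with normexp, 327 with loess, 696 with crossed labels and 30 at 2-fold. Those at or under 0.67 (4026) numbered 2622, 2513, 2357, 802, 891 and 2206 in that order. In the comparison labelled female, those at or above 1.5 (4492) numbered 1512 with no centring, then 423, 648, 385, 315, 395 and 1968 in the same order. Those at or under 0.67 (209) numbered 582 with no centring, 1072 with a common spread, 2891 with normexp, 1215 with loess, 699 with crossed labels and 97 at 2-fold. The limma calls (7 of 12051 member probes, beside 37 of all 39861) numbered 0 with no centring, normexp or loess, also over all probes. With Cy5 above background on all 4 arrays they numbered 0, beside 1 of all 20584. A common spread gave 116 (beside 492 of all 39861), quantile normalization 63 (beside 228) and the slide as a block 15 (beside 70). With no filter on Cy5 there was 1 call among 24521 member probes, beside 5 of all 80478. Without the Sham male, Sham female, TiO2-H male or TiO2-H female array they numbered 162, 121, 8 and 47, where the lone array of a group is assumed to vary like the others. Of all 83 alternative values, 63 moved beyond their limit and the cause was not tested. The labels give no pairing of the pools beyond the sex label. The slide as a block, which pairs arrays by slide and sex label, gave the 15 calls above. Dim MeDIP signal gives only a bound on the ratio, so methylation below it was not measurable here.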
